A study of Mus musculus with 32 samples.

Results

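The response of the spleen to CBL0137 at 30 mg/kg, given once by vein 24 hours before collection, was examined by comparing 2 spleen arrays of treated mice with 2 spleen arrays of mice given the vehicle, which was 5% dextrose. These 4 arrays belong to a set of 32, in which testis, spleen, liver and lung were each profiled after vehicle, 30, 60 or 90 mg/kg with 2 arrays per group, on RNA of male NIH Swiss mice aged 7 weeks. No allele or transgene is named in the labels, and nothing in them says that paired arrays of a group hold different mice. The p-values therefore cover the spread among arrays, which may be technical. A probe was left out if its mean in the 2 vehicle testis arrays was above 100 and at least 10 times its mean over the 8 liver arrays, after values under 8.3 were set to 8.3. The rule removed 1849 of 25697 probes. Each gene was represented by its brightest probe over all arrays, and the rule removed 1386 of 16593 genes on that basis. Of the 15207 genes kept, 9790 were detected in at least 2 of the 8 spleen arrays and were tested.

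CBL0137 is a DNA-binding small molecule that traps FACT, a histone chaperone that loosens and rebuilds nucleosomes, on chromatin. The compound is known to activate p53 and to induce interferon responses. The mouse spleen filters blood, holds B and T lymphocytes in its white pulp, and in its red pulp holds macrophages that recycle iron and a large pool of dividing erythroid precursors. The level of the FACT subunits was not analysed here, since none of the named probes stood for one.

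The spleen label was borne out by its markers. In the 4 arrays, the B cell receptor subunit Cd79a lay between 2945.4 and 3535.5 intensity units and the T cell receptor subunit Cd3e between 428.7 and 572.7. Spic, the transcription factor of red pulp macrophages, lay between 658.0 and 1004.5, and the macrophage marker Adgre1 between 383.6 and 426.3. The exocrine pancreas genes Prss2 and Cpa1 stayed below 4 intensity units in all of them, while the pancreatic elastase gene Cela1 read 403.8 and 225.9 in vehicle and 336.8 and 554.8 at 30 mg/kg, with overlapping groups. The vehicle spleens also carried sperm cell transcripts, which the rule was built to remove. Prm1, a protamine of sperm chromatin, read 8211.1 and 12420.2 in the vehicle arrays and 366.9 and 2142.7 at 30 mg/kg. Over 72 testis-bright probes that lie below detection in liver, the median spleen level was 2.74% and 5.70% of the testis level in vehicle arrays 1 and 2. At 30 mg/kg it was 0.0202% and 0.531%. In the spleen it was 1.03% and 0.248% at 60 mg/kg, and 1.16% and 0.214% at 90 mg/kg. The vehicle lungs also carried some of this signal, at 0.956% and 0.606%, against 0.0143% and 0.0762% in the lungs at 30 mg/kg. The 2 spleen arrays of a group correlated at 0.9834 or 0.9835 over all probes.

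Differences between the groups outside the testis-like genes were few. With limma fitted on all 8 spleen arrays and Benjamini-Hochberg adjustment over all 11023 genes tested, testis-like genes included, 27 of 9790 genes were called at an adjusted p under 0.05, or 0.276%. Of these, 17 were higher at 30 mg/kg (0.174%) and 10 were lower (0.102%). Adjusted p-values of the calls lay between 0.0363 and 0.0485. These calls depend on the genes that were removed: 320 of the 347 calls made over the whole table were testis-like genes, all of them lower at 30 mg/kg, and the Benjamini-Hochberg threshold is set over all p-values together. With the same p-values adjusted over the 9790 genes alone, 0 genes were called in limma, with a smallest adjusted p of 0.185. When the testis-like genes were left out before the fit, limma called 0 genes, with a smallest adjusted p of 0.118, while 761 genes (7.77%) had an unadjusted p under 0.05. The largest unadjusted p among the calls was 0.00156, a value that 15.2 of 9790 genes would reach if none differed. Cyclic loess normalization within the spleen gave 9 higher and 11 lower genes in place of 17 and 10. Single arrays also decided the calls. Leaving out any 1 vehicle or 30 mg/kg array changed how many genes were called and which. In most of these fits none of the 27 genes stayed called. In the fit with all genes, 697 genes (7.12%) had an unadjusted p under 0.05, of which 581 were higher and 116 lower. Every gene described as having risen or fallen passed the test in the fit with all genes and missed it in the fit without them. Log2 differences are given ± SE with 2 arrays per group, on a scale of log2(intensity + 16), which understates changes of dim probes.

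Most genes tested leaned upward by a small amount. The median log2 difference of the 9790 genes was 0.103, and 6442 of them (65.8%) were above 0. Both treated arrays lay above both vehicle arrays in 2937 genes (30%) and below both in 871 genes (8.9%). The arrays had been quantile normalized together, and the 320 called genes among those removed were all lower at 30 mg/kg. The part of this in the lean of the genes kept was not tested. The lean moved with the testis level. In the 6067 genes with a vehicle testis mean under 100 the median difference was 0.174, and in the 711 genes with a testis mean of 1000 or more it was -0.084. Of the 10 genes that fell, 9 lay in that brightest group, which held 0 of the 17 that rose. Conversely, 16 of the 17 genes that rose had a testis mean under 100. The plot of the difference against the testis level shows both sets.

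**Figure D1:**
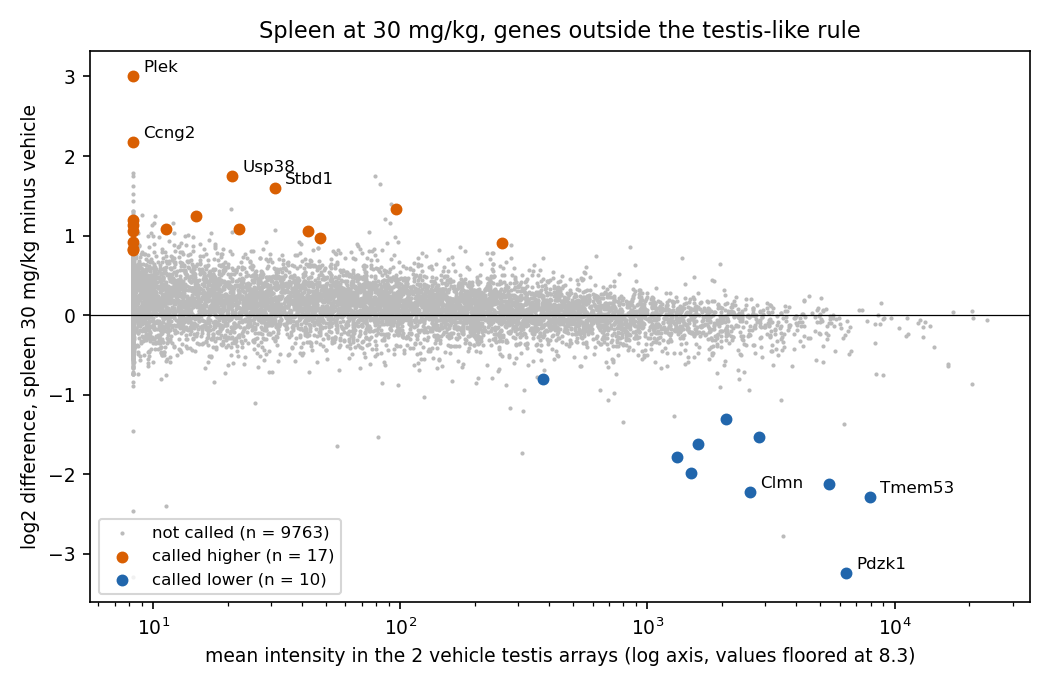
Log2 difference between spleen arrays at 30 mg/kg and vehicle (y axis) against the mean intensity of the gene in the 2 vehicle testis arrays (x axis, log scale, values floored at 8.3), 1 point per gene for 9790 genes. The 17 genes called higher (orange) sit at testis levels up to 257, and the 10 called lower (blue) at levels from 378 to 7929.

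Ccng2 rose at 30 mg/kg and was back at its vehicle level at both higher doses. It encodes cyclin G2, an atypical cyclin that is known to be linked to cell cycle arrest and is a known target of FoxO transcription factors. Its intensity was 15.4 and 4.0 in the vehicle spleens and 109.7 and 86.4 at 30 mg/kg. Both treated arrays were far above both vehicle arrays, of which the second was not above background. The log2 difference was 2.18 ± 0.28 (adjusted p = 0.0363 in limma, n = 2 against 2). The readings were 11.1 and 7.1 at 60 mg/kg and 12.3 and 3.9 at 90 mg/kg. The difference of 60 minus 30 mg/kg was -2.18 ± 0.28 on the log2 scale (adjusted p = 0.0478 in limma), and the difference of 90 minus 30 mg/kg was -2.26 ± 0.28 (adjusted p = 0.0348 in limma). These comparisons share the 30 mg/kg arrays with the comparison against vehicle.

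The same gene was high at 30 mg/kg in other organs. In the liver, Ccng2 read 8.0 and 3.8 after vehicle and 50.4 and 63.8 at 30 mg/kg, a log2 difference of 1.74 ± 0.32 (adjusted p = 0.039 in limma over 32 arrays). The liver did not return fully to the vehicle level, with 9.1 and 50.9 at 60 mg/kg and 27.0 and 29.2 at 90 mg/kg. In the lung it read 21.0 and 20.1 after vehicle and 139.7 and 82.5 at 30 mg/kg, a log2 difference of 1.76 ± 0.32 that missed the threshold (adjusted p = 0.0835 in limma). The 2 arrays at 30 mg/kg lay above both vehicle arrays in each organ, testis included, where all readings stayed between 3.9 and 16.7. The change in the spleen minus the mean change in liver and lung was 0.43 ± 0.39 (adjusted p = 0.83 in limma), so a difference between these organs was not shown. In liver, 8 of 9790 genes (0.0817%) were called at this dose, of which Ccng2 was 1, and in lung 0, where 507 (5.18%) had an unadjusted p under 0.05.

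Plek had the largest rise of all 27 called genes, at 3.01 ± 0.54 (adjusted p = 0.0363 in limma). It encodes pleckstrin, a substrate of protein kinase C known from platelets and leukocytes. Its intensity was 10.7 and 10.3 in the vehicle spleens and 252.6 and 153.2 at 30 mg/kg. The higher doses stayed in that range or above, with 148.7 and 616.9 at 60 mg/kg and 272.0 and 266.5 at 90 mg/kg, so that Plek lay above vehicle in all 6 treated spleens. In testis and liver all arrays read below 15, and in lung the readings ran from 7.4 to 51.2. The change in the spleen exceeded the mean change in liver and lung by 2.75 ± 0.50 on the log2 scale (adjusted p = 0.0045 in limma). That contrast shares the spleen arrays by which Plek was called. Plek moved without other platelet genes. Of the 23 platelet and megakaryocyte genes tested it was the 1 called, 10 were above 0, and the median log2 difference was -0.02. Over all genes tested, 0.276% were called, 65.8% were above 0 and the median was 0.10. The platelet chemokines Pf4 and Ppbp had differences near 0, with Pf4 at 3166.6 and 3868.6 after vehicle and at 5003.8 and 2363.6 at 30 mg/kg. A single probe stood for Plek and for Ccng2.

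**Figure D2:**
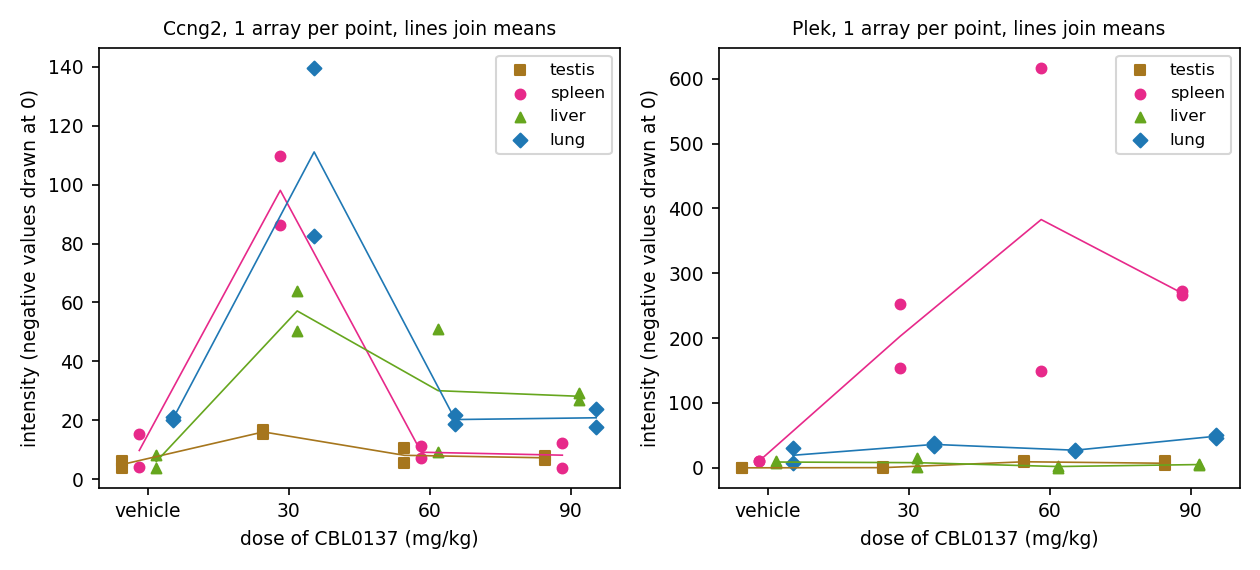
Intensity of Ccng2 (left) and Plek (right) by dose in testis, spleen, liver and lung, 1 point per array with lines through the means of 2 arrays and negative values drawn at 0. The mean of Ccng2 peaks at 30 mg/kg in spleen, liver and lung, though 1 liver array at 60 mg/kg reads 50.9. Plek is high in the 6 treated spleens, with no reading above 51.2 in the other organs.

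The promoter windows of Ccng2 and Plek, 250 bases before to 50 after the start of the gene (RefSeq, GRCm38.p6), are shown. These genes had the largest log2 rises among those called at 30 mg/kg. A search of both strands for the FoxO core motif GTAAACA gave no match in the Ccng2 window on chr5:93267323-93267622 (plus strand). The motif is held by 4.05% of the windows of 27025 genes, counted by gene, and by 4 of the 22 genes with a window in the list of quiescence and FoxO target genes. None of the 15 genes called higher that had a window held it. The Plek window lies on chr11:17008669-17008968 (minus strand) and also had no match to the interferon motif described below. No match says only that these letters are not in this window.
Ccng2: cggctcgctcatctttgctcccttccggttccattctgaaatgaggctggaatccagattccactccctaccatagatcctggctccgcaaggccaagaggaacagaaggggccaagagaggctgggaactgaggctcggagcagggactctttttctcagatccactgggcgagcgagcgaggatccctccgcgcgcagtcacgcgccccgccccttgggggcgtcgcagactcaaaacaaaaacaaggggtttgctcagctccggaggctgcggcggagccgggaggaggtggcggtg
Plek: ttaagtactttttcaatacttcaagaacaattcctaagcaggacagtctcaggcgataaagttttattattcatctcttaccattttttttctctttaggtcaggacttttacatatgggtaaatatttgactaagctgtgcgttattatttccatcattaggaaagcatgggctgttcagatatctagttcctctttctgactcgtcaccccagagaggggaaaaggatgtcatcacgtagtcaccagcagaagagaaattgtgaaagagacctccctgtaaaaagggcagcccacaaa

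Of the 17 genes that rose, 6 are members of any of the gene lists, Ccng2 and Plek included. Tbx21, the T-bet transcription factor of type 1 helper T cells and natural killer cells, read 8.4 and 16.9 in vehicle and 48.1 and 49.5 at 30 mg/kg (log2 1.19 ± 0.22, adjusted p = 0.0376 in limma). The treated arrays lay close together and above both vehicle arrays. Its change exceeded the mean of liver and lung by 1.20 ± 0.23 (adjusted p = 0.00531 in limma), in a contrast that shares the spleen arrays by which Tbx21 was called. Tbx21 read 46.5 and 35.8 at 60 mg/kg and 21.4 and 14.0 at 90 mg/kg. Its difference of 90 minus 30 mg/kg was -0.95 ± 0.22 and missed the threshold (adjusted p = 0.155 in limma). Klra17, a receptor of the Ly49 family, read 74.2 and 69.0 in vehicle and 175.2 and 177.3 at 30 mg/kg (log2 1.13 ± 0.22, adjusted p = 0.0399 in limma).

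Ms4a6d, a membrane protein of macrophages, read 107.1 and 133.4 in vehicle, 364.3 and 254.3 at 30 mg/kg, and 957.4 and 1115.8 at 90 mg/kg. Ifi202b, an interferon-inducible DNA-binding protein that was not in the list of interferon-stimulated genes, read 112.7 and 87.9 in vehicle, 214.5 and 245.9 at 30 mg/kg, and 621.5 and 546.4 at 90 mg/kg. The log2 differences at 30 mg/kg were 1.24 ± 0.26 and 1.09 ± 0.22. Both read higher at 90 than at 30 mg/kg in both arrays, by 1.71 ± 0.26 for Ms4a6d (adjusted p = 0.0677 in limma) and 1.29 ± 0.22 for Ifi202b (adjusted p = 0.094 in limma), which missed the threshold. Stbd1, a glycogen-binding protein, read 54.7 and 49.1 in vehicle and 238.4 and 148.5 at 30 mg/kg (log2 1.59 ± 0.24). It read 139.0 and 164.1 at 60 mg/kg, and 75.8 and 89.9 at 90 mg/kg. The difference of 90 minus 30 mg/kg for Stbd1 was -1.05 ± 0.24 and missed the threshold (adjusted p = 0.152 in limma).

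Fkbp11, a prolyl isomerase of the endoplasmic reticulum that is abundant in plasma cells, read 60.5 and 78.9 in vehicle and 175.3 and 154.6 at 30 mg/kg (log2 1.08 ± 0.21). Derl3, a factor of endoplasmic reticulum degradation, read 9.1 and 10.0 in vehicle and 29.3 and 39.4 at 30 mg/kg (log2 0.97 ± 0.21). Both belong to the plasma cell list, in which 2 of 12 genes tested were called higher and 11 were above 0, beside 0.174% and 65.8% of all genes tested. At 60 and 90 mg/kg 0 genes of this list were called against vehicle in limma, beside 1.23% and 3.13% of all genes tested. The list medians against vehicle were 0.38 at 30, 0.47 at 60 and 0.34 at 90 mg/kg. Qprt, an enzyme of NAD synthesis, read 30.0 and 38.1 in vehicle and between 72.2 and 85.7 in all 6 treated spleens (log2 0.92 ± 0.18 at 30 mg/kg).

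The remaining genes that rose were Usp38, a ubiquitin protease (1.75 ± 0.34), Tmtc4, a mannosyltransferase of the endoplasmic reticulum (1.34 ± 0.17), Sh3pxd2b, an adaptor of podosomes (1.06 ± 0.19), Arhgap24 (1.06 ± 0.19), Rapgef5, a Rap guanine nucleotide exchange factor (0.91 ± 0.19), Rnf115, a ubiquitin ligase (0.83 ± 0.16), and Slc1a7, a glutamate transporter (0.82 ± 0.17). The vehicle arrays of Tmtc4, Rnf115 and Slc1a7 were not above background, so a fold against the lowest detected signal is at least 1.68 for Tmtc4 and at least 1.18 for the others. Some called genes had further probes. A second Usp38 probe, with a mean of 19.8 intensity units over all arrays, differed by -0.01 on the log2 scale, that of Arhgap24 (mean 32.4) by 0.25 and that of Ms4a6d (mean 36.9) by 0.80. The third Usp38 probe differed by -0.1, the other Tmtc4 probe by 0.0 and the other Ifi202b probes by 0.17 and -0.63. These probes averaged below the detection threshold over the arrays of all organs. By that measure the called probes of Tbx21 (mean 5.7) and Rnf115 (mean 3.3) did too. Of the 17 genes that rose, 5 had a change in the spleen that exceeded the mean of liver and lung in the limma fit of all arrays, namely Plek, Tmtc4, Stbd1, Tbx21 and Rnf115. The same spleen arrays had served to call these genes.

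**Figure D3:**
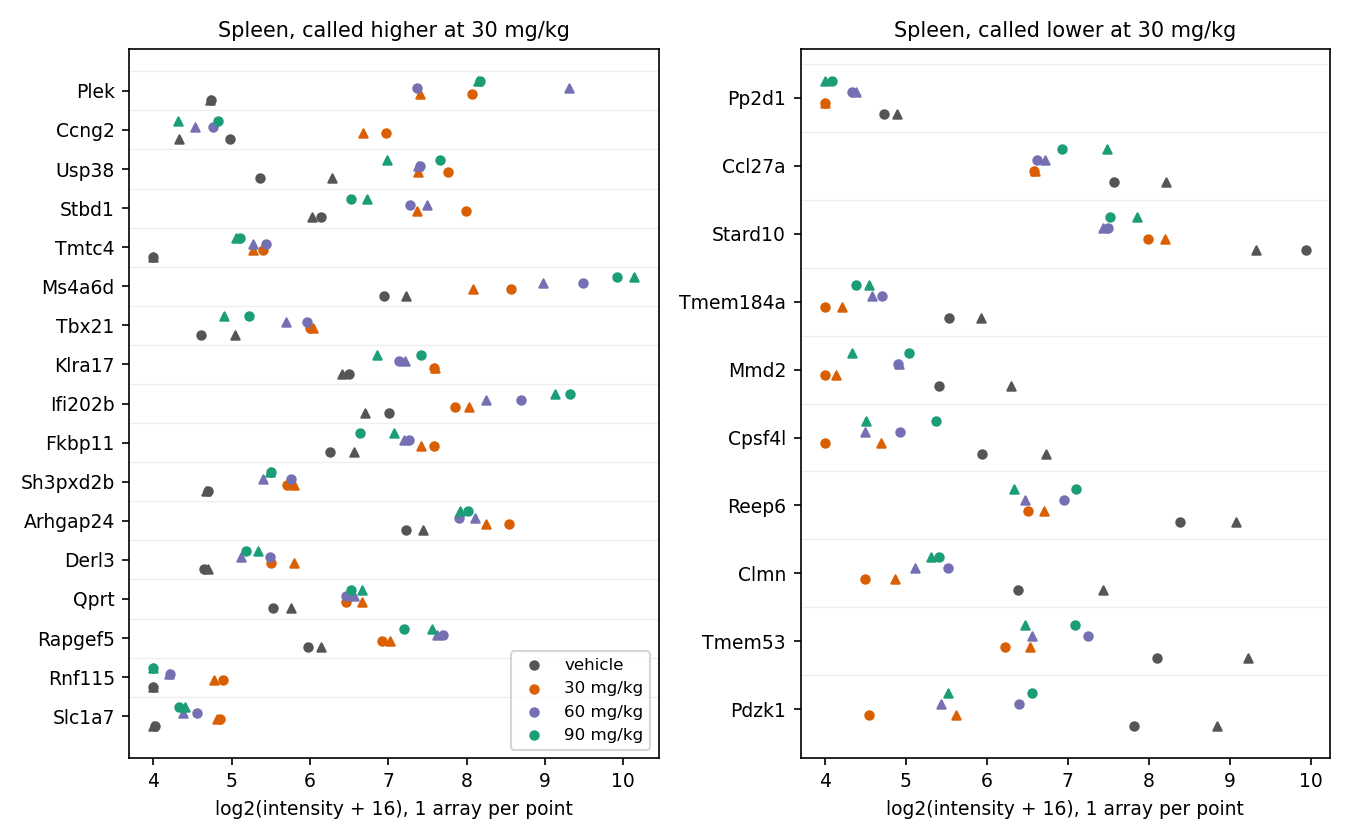
Log2(intensity + 16) in the 8 spleen arrays for the 17 genes called higher (left) and the 10 called lower (right) at 30 mg/kg, with circles for replicate 1 and triangles for replicate 2 of each dose. The 30 mg/kg and vehicle arrays do not overlap in any of the 27 genes, which were called from these same arrays. Of all genes tested, 30% had both 30 mg/kg arrays above both vehicle arrays and 8.9% had both below. Ccng2 has its highest values at 30 mg/kg.

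The 10 genes that fell were Pdzk1 (-3.24 ± 0.54), Tmem53 (-2.29 ± 0.41), Clmn (-2.23 ± 0.34), Reep6 (-2.12 ± 0.33), Cpsf4l (-1.98 ± 0.40), Mmd2 (-1.79 ± 0.33), Tmem184a (-1.62 ± 0.20), Stard10 (-1.54 ± 0.24), Ccl27a (-1.30 ± 0.27) and Pp2d1 (-0.81 ± 0.17). Each was bright in the vehicle testis, between 378 and 7929 intensity units. In 8 of the 10 the testis level was at least 3 times the liver level, and the highest ratio was 9.62, under the 10 of the rule. Pdzk1, a scaffold protein of membrane transporters, read 210.1 and 441.0 in the vehicle spleens and 7.4 and 33.3 at 30 mg/kg. Reep6, a protein that shapes the endoplasmic reticulum, read 318.5 and 524.9 in vehicle and 75.3 and 88.5 at 30 mg/kg. Among their further probes outside the rule, those of Stard10 differed by -1.08, of Tmem53 by -1.23 and -0.93, of Ccl27a by -0.50, of Reep6 by -0.29 (mean 47.7) and of Tmem184a by -0.10 (mean 37.1). In 9 of the 10 genes the second vehicle array was higher than the first, as it was for the sperm cell transcripts.

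The excess of each vehicle array over the mean of the treated arrays was compared with the level of the gene in the testis. Over the 10 genes, the median excess was 2.88% of the testis level in vehicle array 1 and 6.14% in array 2, beside 2.74% and 5.70% for the 72 testis-bright probes. The genes were chosen as lower than vehicle, so an excess above 0 follows from the choice, and these values are a description with no test. Stard10, a lipid transfer protein, stood apart with 24.9% and 12.9%. It read 962.2 and 622.9 in vehicle and 237.8 and 276.7 at 30 mg/kg, and its higher vehicle array was the first. When each spleen array had its testis share subtracted, 3 genes were called, namely Ccng2 and Tmtc4 as higher and Reep6 as lower. Under that subtraction the log2 difference of Reep6 was -1.32 ± 0.19 (adjusted p = 0.049 in limma), and that of Stard10 was -1.31 ± 0.32 and missed the threshold (adjusted p = 0.239 in limma). Those of Clmn, Pp2d1, Tmem184a and Mmd2 lay between -0.076 and 0. Values below 0 after the subtraction were set to 0. The 0 of Tmem184a and Mmd2 stands for arrays at that floor, so no change could be measured there. A stricter rule, a testis to liver ratio of 3 and a testis mean above 50, was applied to the same calls with no new fit or adjustment. It left 17 genes, of which 15 were higher and 2, Reep6 and Stard10, were lower. The p-values of testis-like genes still set the threshold there, so the 17 were not tested anew. Fewer cells of a type and less RNA per cell cannot be told apart in these whole organs.

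**Figure D4:**
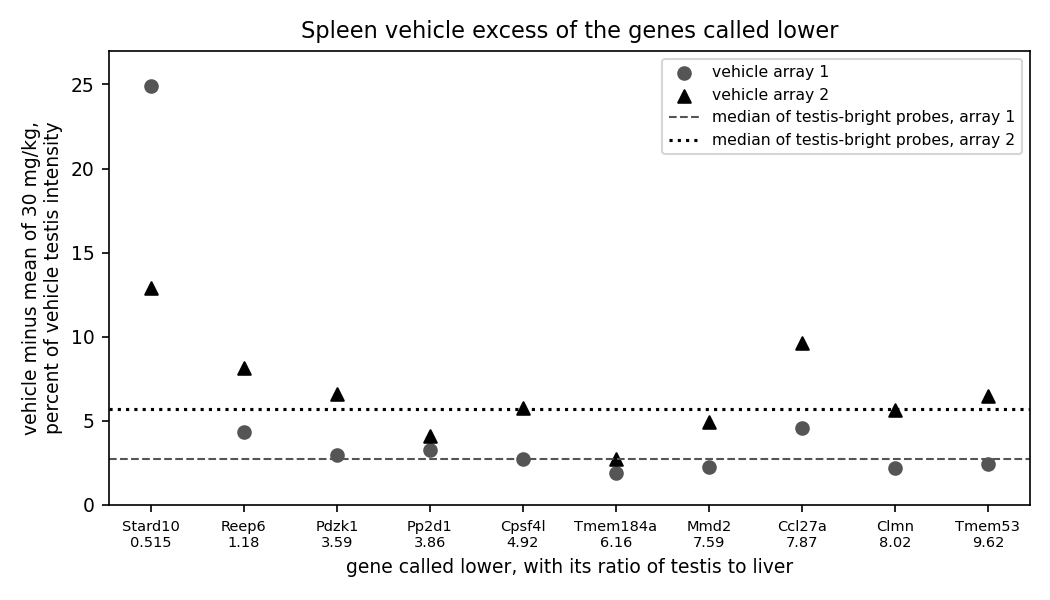
Excess of each vehicle spleen array over the mean of the 30 mg/kg arrays, as percent of the vehicle testis intensity (y axis), for the 10 genes called lower, ordered by their ratio of testis to liver (printed under each name). Dashed and dotted lines mark the medians of 72 testis-bright probes, 2.74% and 5.70%. Most points lie near their line, and Stard10 lies above at 24.9% and 12.9%.

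At the edge of the rule, Kcnab2, Agpat4 and Zwilch were left out at ratios of 10.0, 10.01 and 10.02. Nbr1, Kif3b and Inpp5e were kept at 9.9993, 9.94 and 9.93. The log2 differences of the kept genes were -0.56, -0.15 and -0.07, and those of the genes left out were 0.11, -0.25 and 0.34.

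Interferon-stimulated genes, which encode antiviral effectors and sensors, leaned upward at 30 mg/kg with 0 of 43 tested genes called, against 0.276% of all genes. The median log2 difference was 0.37, beside 0.10 for all genes tested, 39 of 43 were above 0, and 9 were higher and 1 lower at an unadjusted p under 0.05. Of all genes tested, 65.8% were above 0, and 5.93% were higher and 1.18% lower at that unadjusted p. Oasl2, an antiviral oligoadenylate synthetase-like protein, read 64.7 and 94.9 in vehicle and 169.3 and 157.7 at 30 mg/kg (log2 0.92 ± 0.20, adjusted p = 0.0540 in limma). Irf7, the transcription factor that amplifies type I interferon, read 32.6 and 35.7 in vehicle and 64.7 and 109.9 at 30 mg/kg (log2 1.01 ± 0.27, adjusted p = 0.114 in limma). Mx1 went the other way, at 12.0 and 6.5 against -0.4 and -0.3, all near background, with a log2 difference of -0.65 ± 0.21 (adjusted p = 0.205 in limma). Isg15 had overlapping groups, at 593.1 and 295.6 in vehicle and 363.0 and 838.2 at 30 mg/kg.

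The median over these genes of the difference of 60 minus 30 mg/kg was 1.10 on the log2 scale, and that of 90 minus 30 mg/kg was 1.26. Of 9790 genes, 13 (0.133%) were called for 60 minus 30 mg/kg, 7 higher and 6 lower, and all 7 higher genes are in the interferon list. Leaving out 1 array brought this count to 0 without 30 mg/kg array 1 or 60 mg/kg array 1, to 3 without 30 mg/kg array 2 and to 2 without 60 mg/kg array 2. The largest was Ifit3, an antiviral effector, which read 152.4 and 194.8 in vehicle, 251.2 and 377.7 at 30, 2449.0 and 1820.3 at 60, and 3784.9 and 2800.3 at 90 mg/kg. Its difference of 60 minus 30 mg/kg was 2.71 ± 0.28 (adjusted p = 0.0356 in limma). For 90 minus 30 mg/kg, 20 genes (0.204%) were called, of which 18 were higher, 13 of them in the interferon list. This count was 3 without 30 mg/kg array 1 or 90 mg/kg array 1, 6 without 30 mg/kg array 2 and 2 without 90 mg/kg array 2. The medians of the interferon list against vehicle were 0.37, 1.32 and 1.41 at the 3 doses. The genes lower at 60 than at 30 mg/kg included 4 replication-dependent histone genes of the H2A family, among them H2ac22 (-2.09 ± 0.24), whose difference at 30 mg/kg was 0.002 ± 0.236.

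The promoter windows of Ifit3 and Cxcl10 (a chemokine of the interferon response) are shown as examples of a match to the motif described next. They were picked among genes called for 90 minus 30 mg/kg whose window holds that motif. That they have a match therefore follows from the choice. The motif searched on both strands was the core of the interferon-stimulated response element, GAAA followed by any 2 bases and GAAA. Matches are in capitals, and one on the other strand reads TTTC, any 2 bases and TTTC. It is held by 3.99% of genes with a window, by 17 of 33 genes of the interferon list (51.5%), by 5 of the 13 genes with a window that were called for 90 minus 30 mg/kg (38.5%), and by 0 of the 15 genes with a window that rose at 30 mg/kg, Ifi202b included. The Ifit3 window, on chr19:34583279-34583578 (plus strand), holds 2 matches. That of Cxcl10, on chr5:92348840-92349139 (minus strand), holds 1.
Ifit3: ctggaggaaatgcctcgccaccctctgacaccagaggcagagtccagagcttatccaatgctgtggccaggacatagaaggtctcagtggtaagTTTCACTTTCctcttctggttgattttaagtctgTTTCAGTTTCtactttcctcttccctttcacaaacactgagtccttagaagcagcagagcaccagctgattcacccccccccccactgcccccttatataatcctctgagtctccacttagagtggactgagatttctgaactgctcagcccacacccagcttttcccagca
Cxcl10: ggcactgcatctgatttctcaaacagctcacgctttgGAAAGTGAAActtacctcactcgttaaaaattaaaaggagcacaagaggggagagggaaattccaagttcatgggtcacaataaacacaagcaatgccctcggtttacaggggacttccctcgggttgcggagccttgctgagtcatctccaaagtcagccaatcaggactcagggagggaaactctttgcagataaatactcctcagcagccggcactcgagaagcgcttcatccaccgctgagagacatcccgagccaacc

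Other gene groups at 30 mg/kg are described by their counts and medians. The neutrophil list had a median of 0.70, with 20 of 20 tested genes above 0 and 0 called, beside 65.8% of all genes above 0. Chil3, a chitinase-like protein of neutrophils and macrophages, read 1439.4 and 1136.0 in vehicle and 3652.2 and 2555.9 at 30 mg/kg (log2 1.25 ± 0.30, adjusted p = 0.0771 in limma). Summed over the list, the arrays read 53367 and 42280 in vehicle and 88331 and 53666 at 30 mg/kg, so array 1 carried most of the excess. The list medians at 60 and 90 mg/kg were 0.12 and 0.34. Il1b, the cytokine interleukin 1 beta, read 268.8 and 268.4 in vehicle and 784.5 and 488.2 at 30 mg/kg (log2 1.16 ± 0.28, adjusted p = 0.0779 in limma). The list of NF-kB and inflammatory genes had a median of 0.30, with 21 of 24 above 0 and 0 called.

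Target genes of p53, which arrest the cell cycle or promote cell death, had a median of 0.20 with 26 of 31 above 0 and 0 called. Over all genes tested the median was 0.10, with 65.8% above 0 and 0.276% called. Cdkn1a, the cell cycle inhibitor p21, read 60.9 and 52.4 in vehicle and 88.6 and 93.7 at 30 mg/kg (log2 0.56 ± 0.17, adjusted p = 0.163 in limma). The treated arrays lay above both vehicle arrays, by less than the test can call. Of the 24 quiescence and FoxO target genes tested, Ccng2 was the 1 called, and the list median was 0.08.

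Dividing cells and erythroid precursors, which make up much of the mouse red pulp, showed no shift that stood clear of the array spread. The proliferation list lost 20 of its 52 genes on the array to the testis rule, and the 26 tested had a median of -0.19 with 8 above 0 and 0 called. The erythroid list had a median of -0.13 with 5 of 27 above 0 and 0 called. Of all genes tested, 65.8% were above 0 and 0.276% were called. Klf1, the master regulator of red cell development, read 3344.7 and 1562.0 in vehicle and 1275.6 and 2484.9 at 30 mg/kg, and the summed erythroid list read 116497 and 77076 in vehicle and 78466 and 89889 at 30 mg/kg, so the groups overlapped. At 60 mg/kg the erythroid median was -1.96 and at 90 mg/kg -1.69, and the proliferation medians were -1.30 and -1.33. At 60 mg/kg Klf1 read 77.7 and 88.1.

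The lists of other cell types had medians of differing size. Over all genes tested the median was 0.10, with 65.8% above 0 and 0.276% called. T and NK cell genes had a median of 0.25 with 21 of 25 above 0, B cell genes 0.08 with 18 of 23, macrophage genes 0.16 with 20 of 24, dendritic cell genes 0.11, endothelial genes 0.12 and stromal genes 0.39. Of these, Tbx21 and Ms4a6d were the genes called. Hepatocyte genes were all above 0, 15 of 15 tested with a median of 0.77 and 0 called, at low readings. Their summed level was 771 and 461 in vehicle and 1792 and 734 at 30 mg/kg, the second of which lay within the vehicle range, and the median was -0.42 at 90 mg/kg. Lung epithelium genes were above 0 in 7 of 7, with a median of 0.50. At 90 mg/kg the lung epithelium median was -0.15, while that of all genes tested was 0.13. The part of hepatocyte and lung epithelium genes in the upward lean at 30 mg/kg was not tested. The median of the histone list was 0.28 with 33 of 42 above 0, that of amino acid and endoplasmic reticulum stress genes was 0.17, that of immediate early genes 0.15, of clock genes 0.14, of exocrine pancreas genes 0.23, of adipocyte genes 0.08, of Myc and ribosome biogenesis genes 0.07, of glucocorticoid-induced genes 0.05, of heat shock genes -0.004, of histone chaperone and HMG genes -0.03 and of DNA damage genes -0.14. None of the genes in these last groups was called. The list of spermatid genes had no gene left to test, since the rule had removed 31 of the 34 on the array, and 2 of the spermatocyte and Leydig genes were tested.

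**Figure D5:**
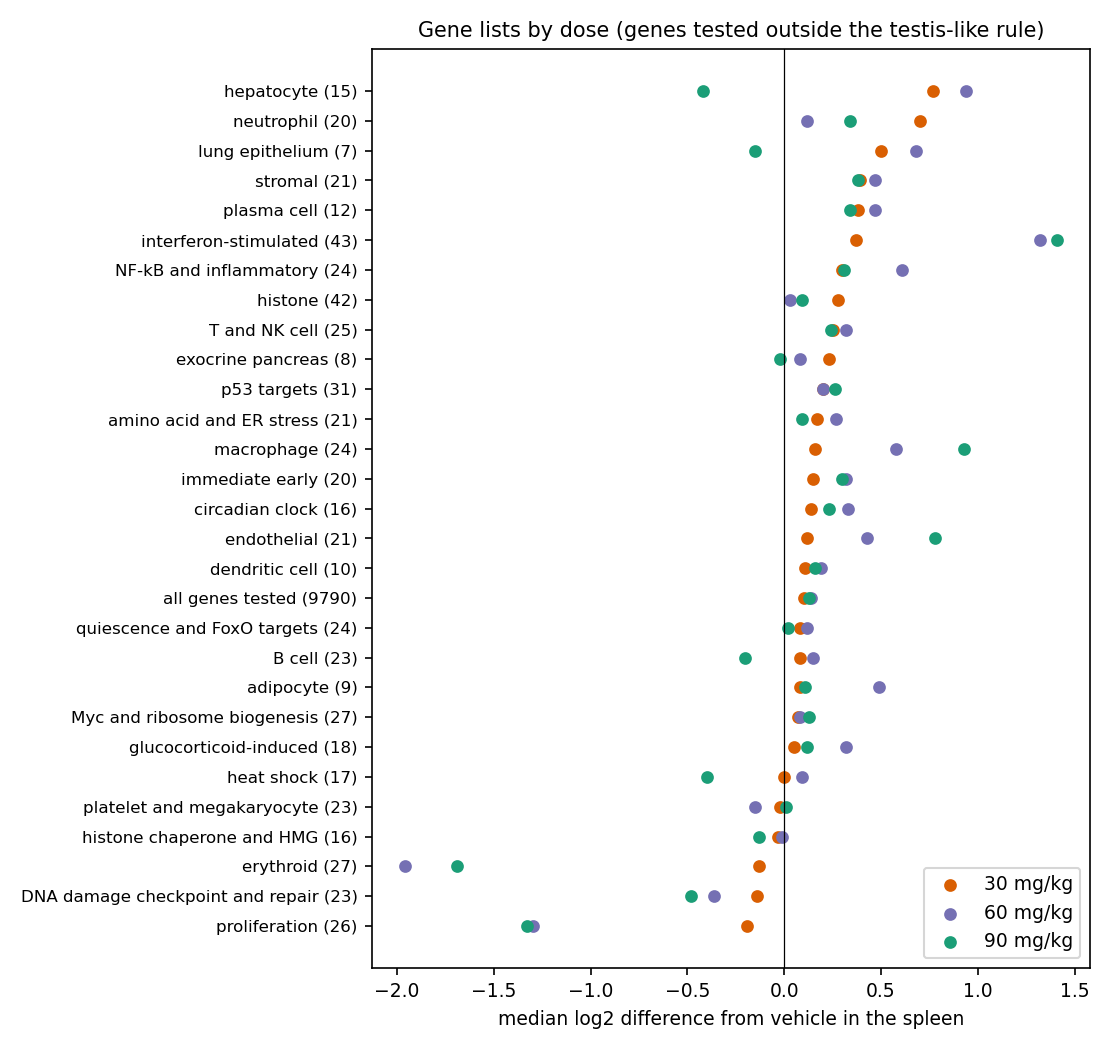
Median log2 difference from vehicle in the spleen for the gene lists with at least 5 genes tested (number of genes in brackets), at 30 (orange), 60 (purple) and 90 mg/kg (green). At 30 mg/kg the medians run from -0.19 to 0.77, while the interferon list reaches 1.41 and the erythroid list -1.96 at the higher doses.

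The change in the spleen at 30 mg/kg was also set against the mean change in liver and lung, in 1 fit of all 32 arrays. Of 9790 genes, 31 (0.317%) were called, 18 with a higher and 13 with a lower change in the spleen. Of the 10 genes that fell, 9 were among the 13, and 5 of the 17 that rose were among the 18. This contrast holds the same spleen difference by which those genes were picked, so the overlap follows in part from the choice. Lat, an adaptor of T cell receptor signalling, had a lower change in the spleen (-2.96 ± 0.68, adjusted p = 0.0167 in limma). It read 202.2 and 171.8 in the vehicle spleens, 2.6 and 6.8 at 30 mg/kg, 9.9 and 113.7 at 60 mg/kg, and 124.4 and 16.6 at 90 mg/kg. Lat was not above background in either 30 mg/kg array, so the vehicle level was at least 8.4-fold higher. The arrays within each higher dose group lay far apart, and the difference of 30 mg/kg from vehicle missed the threshold (-3.30 ± 0.81, adjusted p = 0.0833 in limma). Cd48, a surface ligand of leukocytes, had a change higher by 1.58 ± 0.35 (adjusted p = 0.0125 in limma), with 22.0 and -4.8 in vehicle and 59.1 and 50.7 at 30 mg/kg. The count of genes called in this comparison was 1 without vehicle spleen array 2 and 3 without 30 mg/kg spleen array 1.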

How the data were processed

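RNA was extracted with TRIzol and labelled as biotinylated cRNA for an Illumina BeadChip, per the labels' protocols. GenomeStudio produced the deposited intensity values, per the submitters' processing notes, with no version stated. What the authors did can be read from the numbers: background had been subtracted, since 22.0% to 22.5% of each array lay below 0, and the arrays were quantile normalized, since their sorted values differed by at most 1.0. A second deposited table repeats sample names in its header, so its 64 per-sample columns were not used.

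Of 25697 probes, 23978 had 1 gene symbol and 1719 none. Intensities were floored at 0, increased by 16 and taken as log2, and detection was set at 8.048 or 8.292 from the values below 0 of each array. A limma model (version 3.58.1, R 4.3.3) of dose was fitted to the 8 spleen arrays. The contrast of organs used all 32 arrays. Calls used a Benjamini-Hochberg adjusted p under 0.05 over all genes tested. The number of arrays, rather than a depth, limits the precision, and dim genes are limited by signal over background. The fit was tested on simulated data. Python 3.11.15, pandas 2.3.3 and matplotlib 3.10.9 were used for tables and plots.

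The genes, the 30 gene lists and the comparisons were chosen with earlier results of these data known. Named genes were the called genes with no overlap of treated and vehicle arrays, in each list up to 3 called genes or else the 2 of smallest p, genes at the edge of the rule, and Cdkn1a, Isg15, Plek and Ccng2. For the other contrasts they were up to 5 called genes each way. Genes named beyond that, such as Klf1, Pf4 and the sperm cell and spleen markers, serve as markers. Alternatives changed the testis-like rule, probe choice, arrays, filter, offset, normalization, the replicate block and each array in turn.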

Additional observations from a re-analysis of the deposited data

Results flagged for a closer look

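The change at 30 mg/kg in the spleen differed from the mean change in liver and lung, by limma in a fit of all 32 arrays, for 17 of the genes named. Those called against vehicle were picked by the same spleen difference that enters this contrast. All values are log2 differences of the change. The difference was -2.96 for Lat, which had an intensity of 202.2 and 171.8 in vehicle against 2.6 and 6.8 at 30 mg/kg. For the genes that fell in the spleen it was -2.71 for Pdzk1, -2.3 for Cpsf4l, -2.23 for Reep6, -2.07 for Tmem53, -1.82 for Clmn, -1.69 for Tmem184a, -1.52 for Stard10, -1.38 for Mmd2 and -1.18 for Ccl27a. These genes are bright in testis, and the vehicle spleen arrays carried 2.74% and 5.70% of the testis level of testis-bright probes, while the excess of Stard10 was 24.9% and 12.9%. The vehicle lung arrays, which enter the contrast, carried 0.956% and 0.606%, and the lung arrays at 30 mg/kg 0.0143% and 0.0762%. The part of testis signal in these differences was not tested.

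The spleen change was higher by 2.75 for Plek, 1.64 for Tmtc4, 1.58 for Cd48, 1.51 for Pltp, 1.5 for Stbd1, 1.2 for Tbx21 and 1.14 for Rnf115. Pltp, a phospholipid transfer protein, had a log2 difference of 0.75 ± 0.31 in the spleen and -1.44 ± 0.32 in the liver, neither of which passed the adjusted threshold (adjusted p = 0.355 and 0.0882 in limma). With 2 arrays in each group, single arrays could not be examined as outliers.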

How the results depend on the processing

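Against 27 genes called for 30 mg/kg minus vehicle outside the testis-like genes, the count was 0 with testis-like genes left out before the fit, with only the 4 arrays of the comparison, without a detection filter, with detection required in all 8 spleen arrays, with the replicate block and with adjustment over the kept genes alone. It was 17 with a testis ratio of 3, a setting that only took genes out of the same calls. It was 4 with a floor of 8.3 and 3 with the testis share subtracted. With all 32 arrays in 1 fit it was 85, of which 21 were among the 27. It ranged from 0 to 19 when 1 array was left out. The count of 60 minus 30 mg/kg, 13, became 20 with testis-like genes left out, 1 without the filter, 21 with an offset of 50, 3 with the replicate block, and 0 to 3 without 1 array. That of 90 minus 30 mg/kg, 20, became 42, 1, 53 and 12 under the same settings, and 2 to 6 without 1 array. The organ comparison, 31, became 8 with testis-like genes left out and ran from 1 to 46 without 1 array, with 31 under the replicate block. The causes were not tested, except that fewer genes or arrays enter some settings by construction. None of the 27 genes changed sign in these settings. With the testis share subtracted several came closer to 0, with Clmn at -0.076, Pp2d1 at -0.006 and Cpsf4l at -0.277. Tmem184a and Mmd2 came to 0 there because their vehicle and 30 mg/kg arrays all lay at the floor of 0, which leaves no change to measure. The median difference of a list at 30 mg/kg spanned -0.013 to 0.502 for histones, 0.09 to 0.513 for stromal, 0.26 to 1.262 for neutrophil, 0.091 to 1.207 for hepatocyte, -0.709 to 0.322 for proliferation and -0.748 to 0.363 for erythroid genes, each with its ends reached by leaving out 1 array, and 0.283 to 0.475 for interferon-stimulated genes.

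The replicate numbers showed no steady pairing among the spleen dose groups: deviations from the group means correlated between -0.206 and 0.295. Whether arrays of different organs with the same dose and number came from the same mouse was not examined. The main fit of 32 arrays took them as independent. For vehicle and 30 mg/kg the correlation was -0.206, and in a fit of those 4 arrays 18 genes were called with the numbers as labelled and 0 with crossed numbers, both added after seeing the data, as were adjustment over the kept genes alone and the fit of 32 arrays without testis-like genes, which called 22.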
